A study of Mus musculus with 4 samples.

Results

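SWI/SNF (BAF) complexes are assembled around 1 ATPase motor, and the genes followed here encode 10 of their subunits. Their RNA was measured in donor-derived myeloid progenitors sorted from mice that had received a bone marrow transplant. The members are Smarca4, Smarca2, Smarcb1, Smarcc1, Smarcc2, Smarcd2, Smarce1, Arid1a, Arid1b and Arid2. They were taken from the table of gene counts by exact symbol, and all 10 were found among its 12067 genes. The rule uses symbols and no measured value.

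The question of the design was how gene expression in donor-derived myeloid progenitors depends on Bcor, whose protein works in a Polycomb complex of the PRC1 kind. By the series' design text, which names only the BcorΔE9-10 donors, whole bone marrow was transplanted, and the same was taken to hold for BcorWT. Donors of both groups were given tamoxifen by the study's account. The marrow went into sublethally irradiated female Ptprca (CD45.1) recipients, and CD45.2+ Lin- cKIT+ Sca-1- (KL) cells were sorted at 20 weeks and profiled by Quant-seq, which reads the 3′ ends of polyadenylated RNA. The BcorΔE9-10 group (2 libraries) carried scl-Cre-ERT and the floxed allele (scl-Cre-ERT +; Bcorfl/y), and the BcorWT group (2 libraries) carried the same floxed allele, on the single X chromosome of a male, without Cre (Bcorfl/y), so no group controls for Cre itself. The Cre is driven by a Tal1 stem cell enhancer and needs tamoxifen, so recombination is started in stem and early progenitor cells rather than in KL cells themselves, and excision leaves a frameshift and a premature stop codon. Nothing in the labels ties a library to a named animal, so p-values measure the spread between these libraries, which may be in part technical. The study's methods give the age of mice at tamoxifen treatment as a range of months for all mice and not for these libraries, and recipients are expected to retain some cells of their own.

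SWI/SNF complexes use ATP to slide or evict nucleosomes and so open enhancers and promoters, and they are classically described as opponents of Polycomb repression. SMARCA4 (BRG1) and SMARCA2 (BRM) are the alternative motors, SMARCB1, SMARCC1, SMARCC2, SMARCD proteins and SMARCE1 build the shared core, ARID1A and ARID1B define the canonical BAF complex, and ARID2 defines PBAF. In blood formation SMARCA4 is needed for myeloid progenitors, and SMARCD2 is known for its role in the formation of neutrophil granules.

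Bcor-containing PRC1 is brought to unmethylated CpG-rich promoters, so the start regions of both paralogue pairs that the results turn on are shown with every CG dinucleotide in capitals. RefSeq promoter windows (GRCm38.p6, 250 bases before to 50 after the start, gene strand, 5′ to 3′) were matched for 8 of the 10 members. The windows are chr9:21615919-21616218 (+) for Smarca4, chr19:26604910-26605209 (+) for Smarca2, chr9:110131774-110132073 (+) for Smarcc1 and chr10:128458986-128459285 (+) for Smarcc2. The Smarcc1 window lies inside the GENCODE span of the gene.
Smarca4: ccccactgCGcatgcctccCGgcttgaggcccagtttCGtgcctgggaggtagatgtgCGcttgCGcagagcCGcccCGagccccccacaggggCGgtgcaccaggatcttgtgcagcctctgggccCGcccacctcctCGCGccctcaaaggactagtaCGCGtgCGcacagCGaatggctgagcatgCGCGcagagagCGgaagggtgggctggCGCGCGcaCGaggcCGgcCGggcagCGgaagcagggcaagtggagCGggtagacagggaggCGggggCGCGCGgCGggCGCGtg
Smarca2: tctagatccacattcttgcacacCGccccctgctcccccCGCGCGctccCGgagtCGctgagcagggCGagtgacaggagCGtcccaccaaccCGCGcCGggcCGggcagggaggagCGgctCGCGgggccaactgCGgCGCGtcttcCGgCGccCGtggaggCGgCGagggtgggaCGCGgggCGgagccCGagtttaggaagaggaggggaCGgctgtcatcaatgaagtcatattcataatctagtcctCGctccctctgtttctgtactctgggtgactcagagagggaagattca
Smarcc1: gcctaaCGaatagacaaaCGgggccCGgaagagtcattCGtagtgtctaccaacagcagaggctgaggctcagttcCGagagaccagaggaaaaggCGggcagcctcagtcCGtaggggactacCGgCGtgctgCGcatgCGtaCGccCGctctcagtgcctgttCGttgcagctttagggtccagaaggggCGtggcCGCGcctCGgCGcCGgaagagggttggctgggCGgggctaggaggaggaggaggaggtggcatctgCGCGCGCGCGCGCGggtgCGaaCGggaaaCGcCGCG
Smarcc2: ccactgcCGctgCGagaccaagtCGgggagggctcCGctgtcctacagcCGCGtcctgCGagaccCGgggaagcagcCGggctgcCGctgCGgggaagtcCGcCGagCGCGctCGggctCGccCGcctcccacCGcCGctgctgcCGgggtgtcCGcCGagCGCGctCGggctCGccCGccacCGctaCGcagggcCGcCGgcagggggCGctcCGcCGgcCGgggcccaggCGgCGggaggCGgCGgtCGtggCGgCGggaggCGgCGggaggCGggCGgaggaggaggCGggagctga

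The Smarcc2 window held 48 CG dinucleotides, the Smarca4 and Smarcc1 windows 33 each and the Smarca2 window 29, against a median of 7 over 27025 mouse promoter windows of the same length. Arid1b had 42, in a window (chr17:4994824-4995123, +) that lies inside the GENCODE span of the gene, Smarcb1 had 27 and Arid1a 22. Smarcd2 held only 4, and 31.9% of all windows held fewer. Its window, at chr11:106267583-106267882 (-), also lies inside the GENCODE span of the gene. The letters CCGGAAG, a core of ETS-family motifs, were searched on both strands and were present in the Smarca2 and Smarcc1 windows and in 9.12% of all windows. The letters CG themselves, which read the same on both strands, were present in 94.2% of all windows. These are descriptions of the sequence, and no binding or chromatin measurement was used here.

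Depth ranged from 3825289.5 to 6253100.5 counts per library, the members held 141 to 1303 counts in a library, and a count of 3 corresponded to 0.489 to 0.876 counts scaled to library size (CPM). CPM values below are scaled by edgeR's trimmed mean of M-values. The BcorWT replicate 2 library stood apart. Pearson's r of log2 CPM across genes was 0.893 for the BcorWT pair against 0.947 for the BcorΔE9-10 pair, and Gm42418, a gene that overlaps ribosomal RNA sequence, took 1.43% of its counts against 14.3% to 27.9% in the other 3 libraries. All 10 myeloid progenitor markers were in the table, and their summed level was 8058 to 10700 CPM in BcorΔE9-10 and 11002 to 11043 CPM in BcorWT. Neutrophil markers (7 of 7 in the table) were high and overlapped between groups, at 62938 to 154162 CPM, although the sort was lineage-negative. The erythroid list (6 of 7) summed to 92.8 to 103 CPM in BcorΔE9-10 and 28.9 to 51.0 CPM in BcorWT, and the eosinophil list (5 of 5) to 137 to 181 CPM and 264 to 356 CPM. Of the T cell list only 1 of 6 genes was in the table, and CD3 genes were not among them. The part of these marker differences in the values below was not tested, and fewer cells of a type cannot be told apart from less RNA per cell in bulk libraries. The 3′ reads of Bcor do not check the deletion, since they lie beyond it, and its counts were 104 and 113 in BcorΔE9-10 and 58 and 79 in BcorWT.

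None of the 10 SWI/SNF members passed the test between BcorΔE9-10 and BcorWT. With edgeR's quasi-likelihood test the adjusted p was between 0.945 and 0.994, 0 of 10 were called, and 0.0166% of all genes (2 of 12067) were called. At an unadjusted p under 0.05 the count was also 0 of 10, against 4.42% of all genes (1.34% higher and 3.07% lower in BcorΔE9-10). DESeq2 and limma-voom likewise called 0 members (0.356% and 0.0331% of all genes), and neither gave any member an unadjusted p under 0.05. The members' log2 fold changes ran from -0.56 for Smarcc2 to 0.47 for Arid1b, 5 were positive and 5 negative, and their median was 0.0029 against -0.027 over all genes. The groups did not overlap for 3 members, Arid1b (higher in both BcorΔE9-10 libraries) and Smarca4 and Smarcb1 (lower), a count that stands beside 33.9% of all genes with groups that do not overlap. The precision was limited, and the 95% interval lay within a doubling or halving (log2 of 1 either way) for only 5 of the 10 members. The summed level of the members was 966 and 938 CPM in BcorΔE9-10 and 958 and 1043 CPM in BcorWT.

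**Figure D1:**
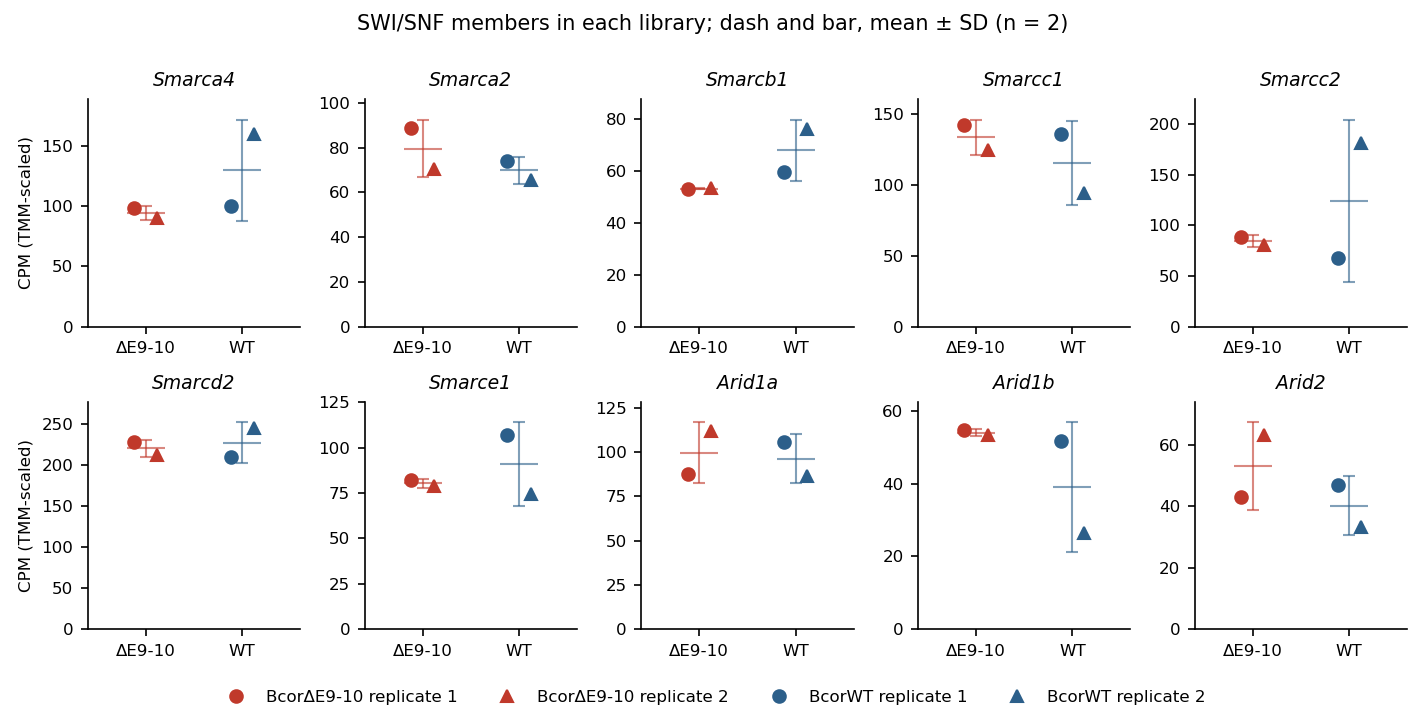
Level of each SWI/SNF member (TMM-scaled CPM, linear axis from 0) in the 2 BcorΔE9-10 libraries (red) and the 2 BcorWT libraries (blue), with circles for replicate 1, triangles for replicate 2, and the mean ± SD of each group (n = 2). The BcorΔE9-10 libraries lie close together for most members, and BcorWT replicate 2 is the highest or the lowest library in every panel.

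Smarca4 (ENSMUSG00000032187, chr9:21616169-21704230, + strand, mm10) encodes the BRG1 motor. Its level was 98.5 and 90.0 CPM in BcorΔE9-10 and 99.9 and 159 CPM in BcorWT. Both BcorΔE9-10 libraries were below both BcorWT libraries, but BcorWT replicate 1 was within 2 CPM of a BcorΔE9-10 library. The log2 fold change was -0.46 (SE 0.35, 95% interval -1.26 to 0.34, edgeR adjusted p = 0.945), and it was -0.084 without BcorWT replicate 2. Smarca2 (ENSMUSG00000024921, chr19:26605050-26778322, + strand), the gene of the alternative motor BRM, was at 88.7 and 70.4 CPM in BcorΔE9-10 and 74.2 and 65.7 CPM in BcorWT. These groups overlapped, and the log2 fold change was 0.19 (SE 0.31, interval -0.54 to 0.91), with 0.011 without BcorΔE9-10 replicate 1, 0.35 without BcorΔE9-10 replicate 2 and 0.10 without BcorWT replicate 2. The 3′ end of Smarca2 overlaps the antisense gene 4931403E22Rik in the GENCODE annotation. The strand setting of the counting is not given in the sources used here, so reads of both genes may not be separable.

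The core subunits followed. Smarcb1 (ENSMUSG00000000902, chr10:75896769-75921617, - strand), whose product anchors the complex on the nucleosome, was at 53.2 and 53.3 CPM in BcorΔE9-10 and 59.6 and 76.4 CPM in BcorWT. The BcorΔE9-10 libraries were almost equal and both lower, and the log2 fold change was -0.35 (SE 0.31, interval -1.08 to 0.37). Without BcorWT replicate 2 it was -0.16.

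Smarcc1 (ENSMUSG00000032481, chr9:110117708-110240178, + strand) and Smarcc2 (ENSMUSG00000025369, chr10:128459248-128490482, + strand) encode BAF155 and BAF170, the paired scaffold proteins. Smarcc1 was at 142 and 125 CPM in BcorΔE9-10 and 136 and 94.5 CPM in BcorWT, and Smarcc2 was at 88.7 and 80.4 CPM and at 67.8 and 181 CPM. In both genes BcorWT replicate 2 lay outside the other 3 libraries, low for Smarcc1 and high for Smarcc2. The log2 fold change of Smarcc1 was 0.21 (SE 0.33, interval -0.56 to 0.98) and that of Smarcc2 was -0.56 (SE 0.46, interval -1.64 to 0.51). Smarcc2 turned to 0.32 without BcorWT replicate 2, and without BcorWT replicate 1 it was -1.10 with an edgeR adjusted p of 0.0479, in a setting where 4.94% of all genes were called. Without BcorWT replicate 1 an unadjusted p under 0.05 was given to 3 members, Smarca4 (log2 fold change -0.76), Smarcc2 and Arid1b (1.02), and to 25.0% of all genes. Without BcorWT replicate 2 it was given to 0 members and to 5.71% of all genes. Smarcc2 was the only member called in any setting, and it moved in opposite directions depending on which BcorWT library was kept.

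Smarcd2 (ENSMUSG00000078619, chr11:106263179-106272972, - strand), the BAF60B gene tied to granule formation, was at 228 and 212 CPM in BcorΔE9-10 and 209 and 244 CPM in BcorWT. The groups overlapped with a log2 fold change of -0.044 (SE 0.31, interval -0.77 to 0.68). The 8 specific granule genes were all in the table. In the edgeR fit of all 4 libraries 0 were called (0.0166% of all genes). At an unadjusted p under 0.05 that fit gave 0 (4.42% of all genes). Their groups overlapped in 8 of 8 cases, where 33.9% of all genes did not overlap, and their median log2 fold change was -0.62. That median depended on every library, at 0.18 without BcorWT replicate 2, -1.09 without BcorWT replicate 1, -0.18 without BcorΔE9-10 replicate 1 and -1.24 without BcorΔE9-10 replicate 2.

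Smarce1 (ENSMUSG00000037935, chr11:99209047-99231017, - strand), which encodes the HMG-box subunit BAF57, was at 82.2 and 78.7 CPM in BcorΔE9-10 and 107 and 74.5 CPM in BcorWT. The groups overlapped (log2 fold change -0.17, SE 0.33, interval -0.93 to 0.59). Its value is uncertain because 2 processed pseudogenes in the table are near copies of its transcript, Smarce1-ps1 (98.3% identity over 1077 bases) and Gm8494 (98.9% over 1233 bases). Smarce1-ps1 had 7 and 146 counts in BcorΔE9-10 and 118 and 39 in BcorWT, and Gm8494 had 16 and 216 and then 175 and 45. The pseudogenes together took 4.91% (95% Wilson interval 3.30 to 7.27) of the summed counts of these 3 genes in BcorΔE9-10 replicate 1 and 42.8% (39.5 to 46.2) in BcorΔE9-10 replicate 2. In BcorWT they took 44.4% (40.6 to 48.2) in replicate 1 and 17.5% (14.4 to 21.2) in replicate 2. The share was thus high in 1 library of each genotype and low in the other. The Smarce1 row itself was close in the BcorΔE9-10 pair (82.2 and 78.7 CPM) and was higher in the BcorWT library with the higher pseudogene share (107 against 74.5 CPM). With the counts of all 3 genes merged the log2 fold change was -0.33. A further 2 processed pseudogenes of Smarce1, Gm4811 (97.4% identity over 1226 bases) and Gm6411 (91.4% over 1215 bases), have no row among the counts used and were not analysed here, nor were those with over 90% identity to stretches of Arid1a (Gm8134) and Smarcc1 (Gm7004).

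The ARID subunits decide the subtype of the complex. Arid1a (ENSMUSG00000007880, chr4:133679008-133756769, - strand) was at 87.4 and 112 CPM in BcorΔE9-10 and 106 and 86.6 CPM in BcorWT, an overlap with a log2 fold change of 0.050 (SE 0.32, interval -0.69 to 0.79). Its alternative Arid1b (ENSMUSG00000069729, chr17:4994332-5347656, + strand) was at 54.7 and 53.5 CPM in BcorΔE9-10 and 51.7 and 26.5 CPM in BcorWT. Both BcorΔE9-10 libraries of Arid1b were above both BcorWT libraries, with BcorWT replicate 1 close to them and BcorWT replicate 2 far below. The log2 fold change of Arid1b was 0.47 (SE 0.39, interval -0.42 to 1.37) and it was 0.065 without BcorWT replicate 2. Arid2 (ENSMUSG00000033237, chr15:96287518-96404992, + strand), the PBAF subunit, was at 42.9 and 63.1 CPM in BcorΔE9-10 and 47.0 and 33.3 CPM in BcorWT. Its groups overlapped, and the log2 fold change was 0.40 (SE 0.36, interval -0.42 to 1.23). With 1 library left out it was 0.10 without BcorΔE9-10 replicate 2, 0.17 without BcorWT replicate 2, 0.65 without BcorΔE9-10 replicate 1 and 0.67 without BcorWT replicate 1.

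**Figure D2:**
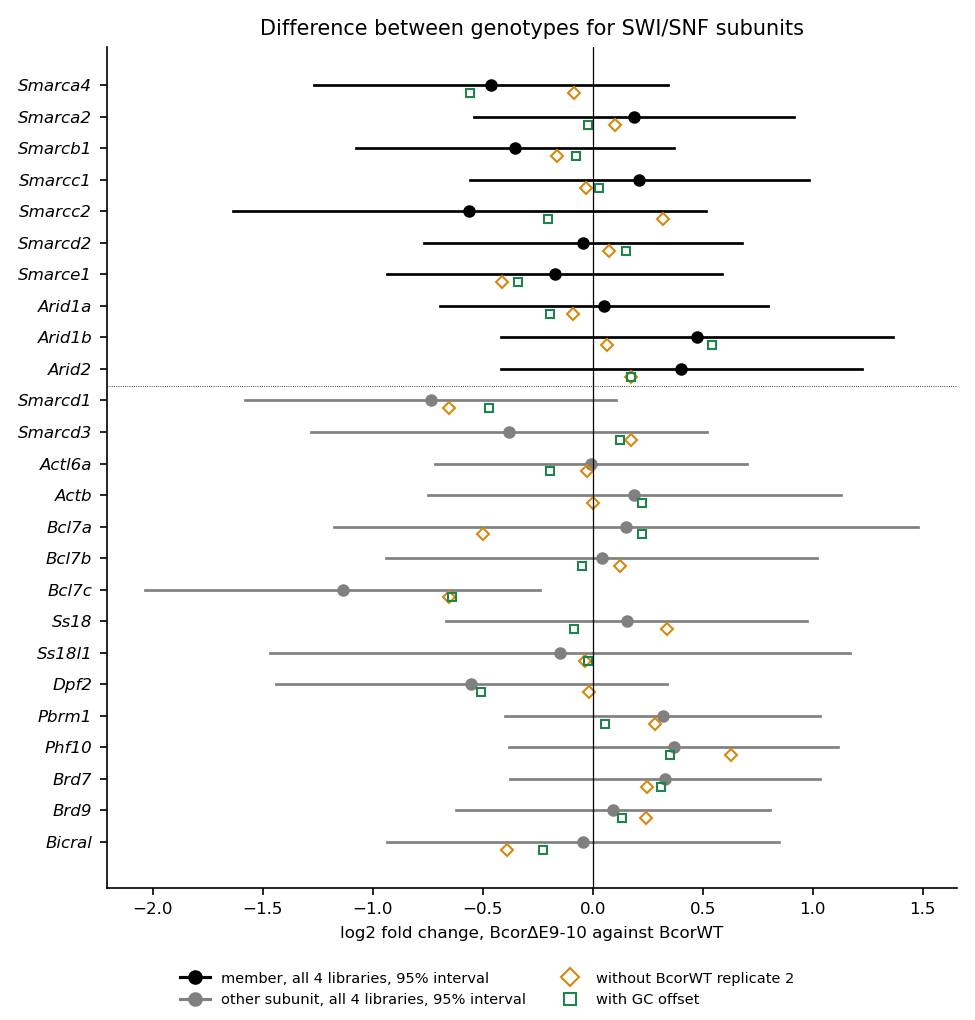
log2 fold change of BcorΔE9-10 against BcorWT for the 10 members (black) and 15 other SWI/SNF subunits (grey), with 95% intervals from edgeR's quasi-likelihood fit of all 4 libraries, and the values without BcorWT replicate 2 (diamonds) and with a GC offset (squares). Every member's interval crosses 0, and for most members the diamond lies nearer to 0 than the values of all 4 libraries.

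Differences between the BcorWT libraries were set beside the difference between genotypes. These measures are unlike, since a difference of single libraries varies more than a difference of group means. The absolute log2 difference between the BcorWT libraries was larger than the absolute fold change between genotypes in 9 of 10 members and in 68.6% of all genes. The median absolute log2 difference was 0.51 between the BcorWT libraries and 0.14 between the BcorΔE9-10 libraries for the members, and 0.57 and 0.31 over all genes. BcorWT replicate 2 was the highest library for 4 members (Smarca4, Smarcb1, Smarcc2 and Smarcd2) and the lowest for the other 6, 10 of 10 in all, where 70.5% of all genes had that library at an extreme.

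The deviation of BcorWT replicate 2 followed the GC content of the transcript's 3′ end. For each gene the level in BcorWT replicate 2 was compared with the mean of the other 3 libraries. The 10223 genes with a sequence were put in order of the GC content of their last 400 bases and cut into 5 bins of about equal size, and from the lowest to the highest bin the median of that log2 difference was -0.51, -0.24, 0.0073, 0.29 and 0.59. Among the members, the 3′ ends of Smarcc2 (53.0% GC), Smarcb1 (51.5%) and Smarcd2 (50.8%) are GC-rich, and these were higher in BcorWT replicate 2. Arid2 (33.5%), Arid1a (34.0%), Smarcc1 (34.5%), Smarca2 (35.5%) and Smarce1 (36.8%) have GC-poor ends and were lower there. Arid1b (49.0%), Smarca4 (41.8%) and Smarcc2 lay far from the median of their bins, Arid1b at -0.99, Smarca4 at 0.73 and Smarcc2 at 1.20 on the log2 scale against the other 3 libraries. Spearman's rho over the 10 members, which share the libraries, was 0.6.

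With a GC offset in the fit, which removed the trend of the fold change on GC content (Spearman's rho over all genes from -0.441 to -0.0010), edgeR called 0 members and 0 of 10223 genes at an adjusted p under 0.05. At an unadjusted p it gave 0 members against 4.13% of genes. The fold changes of Smarca4 (-0.56) and Arid1b (0.54) were as large as before, that of Smarce1 was larger (-0.34), and those of Smarcb1 (-0.076), Smarcc1 (0.027), Smarcc2 (-0.20) and Arid2 (0.17) were smaller. Smarca2 (-0.022), Smarcd2 (0.15) and Arid1a (-0.19) changed sign. The offset was chosen after the data were seen.

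**Figure D3:**
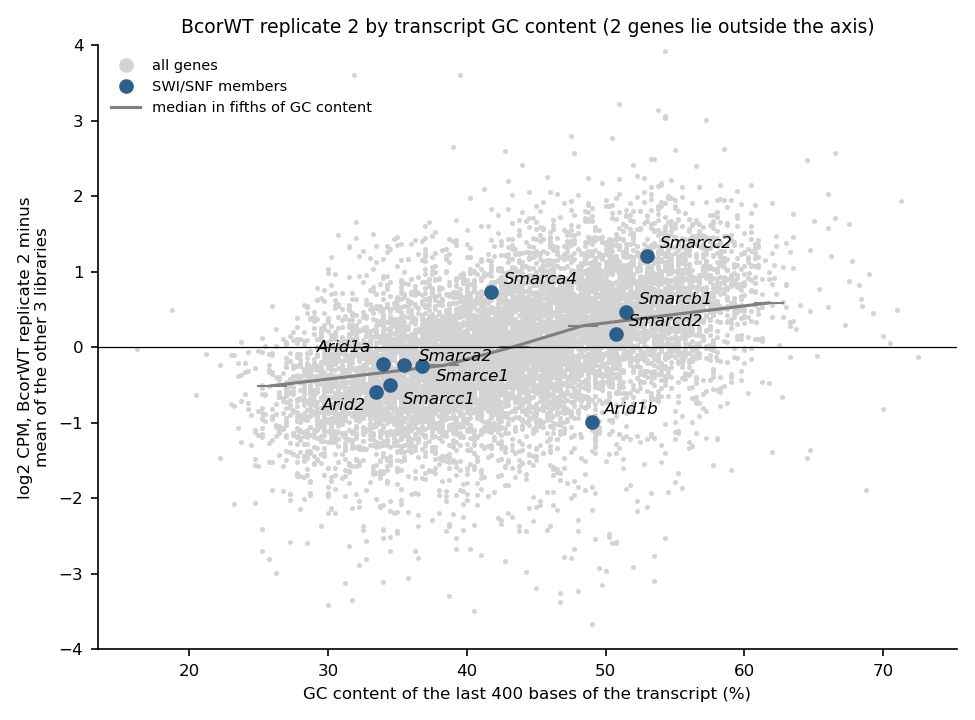
GC content of the last 400 bases of the transcript (%) against the log2 CPM difference between BcorWT replicate 2 and the mean of the other 3 libraries, for all genes with a sequence (grey points) and the 10 members (blue), with the median in 5 bins of GC content (line). The line rises from -0.51 to 0.59, with Smarcc2 above it and Arid1b below it.

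Paralogues that compete for the same position in the complex were compared within each library as shares of their summed counts, which need no scaling between libraries. Priming differs between genes, so a share is compared across libraries and is not a ratio of molecules. Intervals are 95% Wilson intervals and cover counting error only. With 2 libraries against 2 an exact permutation test cannot go below p = 0.333, so this test cannot pass the threshold whatever the values are, and no other test of the ratios was run.

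Among the ATPases, Smarca4 took 52.6% (49.5 to 55.7) and 56.1% (53.0 to 59.2) of the Smarca4 and Smarca2 counts in BcorΔE9-10. It took 57.4% (53.4 to 61.3) and 70.8% (68.2 to 73.3) in BcorWT. BcorWT replicate 1 was within the counting interval of a BcorΔE9-10 library, and BcorWT replicate 2 was apart from all 3. The log2 ratio was lower in BcorΔE9-10 by a difference of -0.60 (exact permutation p = 0.333 for all 4 libraries, two-sided). That difference was -0.18 without BcorWT replicate 2 and -1.03 without BcorWT replicate 1.

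Smarcc1 took 61.6% (58.9 to 64.3) and 60.8% (58.1 to 63.4) of the Smarcc1 and Smarcc2 counts in BcorΔE9-10. In BcorWT it took 66.8% (63.2 to 70.2) in replicate 1 and 34.3% (31.9 to 36.7) in replicate 2, so the more counted scaffold gene was Smarcc1 in 3 libraries and Smarcc2 in the fourth. The difference of the log2 ratio between genotypes was 0.62 over 4 libraries and -0.35 without BcorWT replicate 2, with an exact permutation p of 1.

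Arid1a took 61.5% (58.0 to 64.9) and 67.7% (64.7 to 70.5) of the Arid1a and Arid1b counts in BcorΔE9-10. The BcorWT shares were 67.2% (63.2 to 71.0) and 76.5% (73.0 to 79.8). The groups overlapped in their counting intervals except for BcorWT replicate 2. The log2 ratio differed by -0.50 (exact permutation p = 0.667 for all 4 libraries). This difference was -0.17 without BcorWT replicate 2, -0.84 without BcorWT replicate 1 and -0.31 without BcorΔE9-10 replicate 1.

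Arid2 took 23.2% and 27.6% of the counts of the 3 ARID genes in BcorΔE9-10 and 23.0% and 22.8% in BcorWT, a difference of 0.20 in the log2 ratio (exact permutation p = 0.333). That difference was 0.026 without BcorΔE9-10 replicate 2 and 0.37 without BcorΔE9-10 replicate 1. This was the ratio in which BcorWT replicate 2 departed least from the other 3 libraries, by -0.14 on the log2 scale. Smarcd2 took 83.3% (81.3 to 85.1) and 82.8% (80.8 to 84.6) of the counts of the 3 SMARCD genes in BcorΔE9-10, and 80.6% (77.9 to 83.1) and 76.0% (73.9 to 77.9) in BcorWT. The difference in the log2 ratio was 0.43, or 0.23 without BcorWT replicate 2 (exact permutation p = 0.333 for all 4 libraries).

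Across the 5 ratios, the full range of log2 ratios over the other 3 libraries, which span both genotypes, was 0.26 to 0.39. BcorWT replicate 2 departed from their mean by 0.97 for Smarca4 to Smarca2, -1.71 for Smarcc1 to Smarcc2, 0.78 for Arid1a to Arid1b and -0.55 for Smarcd2 to its paralogues. With the GC offset the genotype differences of the 5 ratios, in the order described, were -0.47, 0.15, -0.86, 0.11 and 0.25.

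**Figure D4:**
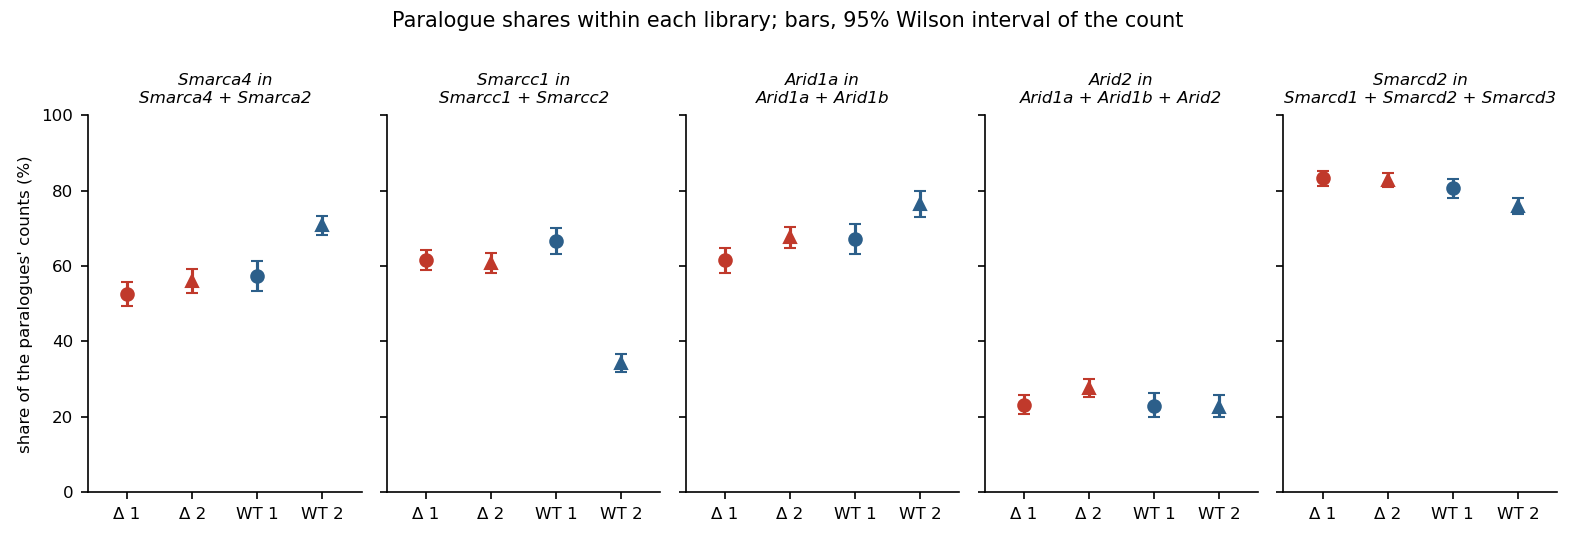
Share of the paralogues' summed counts (%, axis from 0 to 100) taken by the first-named gene in each library, with 95% Wilson intervals of the count, for BcorΔE9-10 (red, Δ) and BcorWT (blue, WT) replicates 1 and 2. BcorWT replicate 2 lies apart from the other 3 libraries for Smarca4, Smarcc1 and Arid1a, and the Smarcc1 share falls there to 34.3%.

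Of 19 other SWI/SNF subunits, 15 were in the table. Actl6b, Dpf1, Dpf3 and Bicra were not analysed here. By edgeR 0 of 15 were called and 1 had an unadjusted p under 0.05 (4.42% of all genes), and the counts by DESeq2 and limma-voom were the same. Their median log2 fold change was 0.040, with 8 positive and 7 negative, and with each library left out it was -0.13 to 0.051. The groups did not overlap for 5, of which 3 were higher in BcorΔE9-10 (16.8% of all genes) and 2 lower (17.1% of all genes).

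The gene at an unadjusted p under 0.05 was Bcl7c, a subunit of the ATPase module, at 15.0 and 18.4 CPM in BcorΔE9-10 and 26.3 and 46.9 CPM in BcorWT. Both BcorΔE9-10 libraries were below both BcorWT libraries. The log2 fold change was -1.14 (SE 0.39, interval -2.03 to -0.24, edgeR adjusted p = 0.945), and it was -0.65 without BcorWT replicate 2 and -0.64 with the GC offset. It was -1.49 without BcorWT replicate 1, -0.99 without BcorΔE9-10 replicate 1 and -1.29 without BcorΔE9-10 replicate 2.

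Smarcd1, a paralogue of Smarcd2, was at 17.9 and 12.6 CPM in BcorΔE9-10 and 23.9 and 26.7 CPM in BcorWT, and the groups did not overlap. Its log2 fold change was -0.74 (SE 0.36, interval -1.58 to 0.11) and was -0.65 without BcorWT replicate 2, -0.50 without BcorΔE9-10 replicate 2 and -0.47 with the GC offset. Smarcd3 was at 27.7 and 31.6 CPM in BcorΔE9-10 and 26.3 and 50.6 CPM in BcorWT (log2 fold change -0.38). Its fold change turned to 0.18 without BcorWT replicate 2 and to 0.13 with the GC offset, and it was -0.77 without BcorWT replicate 1. The 3′ end of Smarcd3 overlaps that of Chpf2.

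The 3 other subunits whose groups were higher in BcorΔE9-10 were Phf10, Pbrm1 and Brd7, which are PBAF subunits, a description of 3 genes with no test of the complex. Phf10 was at 70.0 and 66.3 CPM in BcorΔE9-10 and 44.1 and 61.3 CPM in BcorWT (log2 fold change 0.37, interval -0.38 to 1.12), and its fold change was 0.15 without BcorWT replicate 1 and 0.63 without BcorWT replicate 2. Pbrm1, the bromodomain subunit, was at 146 and 173 CPM against 131 and 125 CPM (log2 fold change 0.32, interval -0.40 to 1.03). Its fold change was 0.19 without BcorΔE9-10 replicate 2 and 0.056 with the GC offset. The 3′ ends of Phf10 and Pbrm1 overlap 1600012H06Rik and Smim4, which are also in the table. Brd7 was at 133 and 129 CPM against 111 and 98.4 CPM (log2 fold change 0.33, interval -0.38 to 1.03). None of these passed the test, with edgeR adjusted p = 0.945 for each, the PBAF member Arid2 overlapped between groups, and the member whose groups were higher in BcorΔE9-10, Arid1b, belongs to canonical BAF.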

How the data were processed

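Per the labels and the study's methods, the authors trimmed Quant-seq reads with cutadapt, ran HISAT2 against mm10, and counted reads per gene with featureCounts of the Subread package. The deposited table holds counts per gene, not normalized, for 4 libraries of the transplant experiment. In 1 gene the deposited values were not whole, as estimated counts (expected counts) would be, so values were rounded. The rule by which genes entered the table and the strand setting of the counting are not given in the sources used here.

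edgeR 4.0.16 (TMM, filterByExpr, which removed 0 genes, quasi-likelihood F test, prior count 0.125, Benjamini-Hochberg adjustment over 12067 genes, call at an adjusted p under 0.05) was fitted on all genes in R 4.3.3. DESeq2 1.42.0 and limma 3.58.1 (voom) were alternatives. Other settings left out each library in turn or Gm42418, or used a block on the replicate number or a prior count of 2. Further settings used DESeq2's size factors, no filter, or only genes that reach 10 counts in all 4 libraries. A GC offset (median deviation per library in 20 bins of GC content of the last 400 bases of the longest coding GENCODE M21 transcript) and the merging of Smarce1 with its pseudogenes (BLAST+ 2.17.0, at least 90% identity over 75 bases) were added after the data were seen. The members and gene lists were chosen with earlier results of these data known. The text names all 10 members, other subunits with an unadjusted p under 0.05 or among the 3 largest changes with groups that do not overlap, paralogues, the lowest p of each other remodelling family, and Bcor, Gm42418 and Xist as facts of the libraries. Pbrm1, Brd7, Mcrs1, Actr5 and Tfpt fall outside this rule, as do the pseudogenes, and were chosen with their values in view. The fits were tested on simulated data. Gene positions are from GENCODE (mm10), promoters from RefSeq.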

Additional observations from a re-analysis of the deposited data

How the results depend on the processing

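Counts of calls depended on the setting, and the members' count did so only when 1 library was left out. Over all genes 2 were called, and 5 with at least 10 counts in every library, 14 with the replicate block, 4 by limma-voom, 43 by DESeq2, 0 with the GC offset and 6 to 596 with each library left out, the highest without BcorWT replicate 1. For the members, 0 were called and 0 to 1 with each library left out, and 0 to 3 had an unadjusted p under 0.05 (the highest without BcorWT replicate 1). For the other subunits the median log2 fold change was -0.13 to 0.051 with each library left out. With the GC offset 0 of them had an unadjusted p under 0.05 by edgeR, beside 4.13% of genes. The members' median log2 fold change was -0.063 to 0.15 with each library left out. Without BcorWT replicate 2, edgeR called 30 genes (0.249%) and 0 members. A group left with 1 library is assumed to vary like the other.

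The sign of the log2 fold change stayed the same in all 13 alternatives for Smarca4, Smarcb1, Arid1b and Arid2 and reversed in 1 or more for the other 6. Most alternatives refit the same libraries, and the one without a filter repeats the main fit, since the filter removed no gene. Every reversal came with a library left out or with the GC offset. With each library left out, Smarcc1 ranged from -0.029 to 0.49, Smarcc2 from -1.10 to 0.32, Smarcd2 from -0.16 to 0.073 and Arid1a from -0.13 to 0.22. The positive end of Smarcc2 and Smarcd2 and the negative end of Smarcc1 came without BcorWT replicate 2, and that of Arid1a without BcorΔE9-10 replicate 2. Arid1a was also at -0.090 without BcorWT replicate 2 and Smarcd2 at 0.0075 without BcorΔE9-10 replicate 2. Smarce1 ranged from -0.41 to 0.11, positive without BcorWT replicate 1. With the GC offset, Smarca2 was at -0.022, Smarcd2 at 0.15 and Arid1a at -0.19. The cause of these reversals was not tested.

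Replicate numbers were not used to pair the samples in the main fit, since nothing in the labels gives the number a shared animal. The correlation of deviations of libraries with the same number was -0.094. That value cannot decide whether the samples were paired, because BcorWT replicate 2 stood apart from the other libraries. With the replicate block 0 members were called and their median log2 fold change was 0.0029.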

Other observations

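Other ATP-dependent remodelling families were measured in the same fit. With all 4 libraries no gene of them was called by edgeR at an adjusted p under 0.05, where 0.0166% of all genes were called. This does not cover the fits with a library left out. Without BcorWT replicate 1 the log2 fold change was -1.57 for Vps72 and -1.31 for Mcrs1, both of the INO80, SRCAP and p400 list. That of Mcrs1 was -0.85 over all 4 libraries, -0.18 without BcorWT replicate 2 and -0.46 with the GC offset. Of 10 ISWI-family genes tested (of 11 listed), 9 had a positive log2 fold change, where 47.7% of all genes did, and the median was 0.28. It was 0.064 without BcorWT replicate 2, 0.50 without BcorWT replicate 1 and 0.16 with the GC offset. The lowest p of this family belonged to Smarca5, the SNF2H motor, at 181 and 166 CPM in BcorΔE9-10 and 170 and 81.1 CPM in BcorWT (log2 fold change 0.47, interval -0.47 to 1.40), and its fold change was 0.025 without BcorWT replicate 2 and 1.09 without BcorWT replicate 1. Of 14 CHD and NuRD genes (of 15 listed) the median was -0.013 (-0.14 to -0.012 with each library left out), and the lowest p belonged to Mbd3, at 31.8 and 23.6 CPM in BcorΔE9-10 and 33.6 and 61.3 CPM in BcorWT (log2 fold change -0.78, interval -1.69 to 0.12). Its fold change was -0.28 without BcorWT replicate 2, -0.29 with the GC offset and -1.15 without BcorWT replicate 1.

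The 22 genes of the INO80, SRCAP and p400 complexes had a median of 0.076, and 1 had an unadjusted p under 0.05, beside 4.42% of all genes. This was Vps72, which encodes a chaperone of the histone variant H2A.Z in the SRCAP and p400 complexes. Vps72 was at 54.3 and 41.4 CPM in BcorΔE9-10 and 65.1 and 141 CPM in BcorWT. Its log2 fold change was -1.11 (SE 0.43, interval -2.10 to -0.13, edgeR adjusted p = 0.945). Its fold change was -1.57 without BcorWT replicate 1, -0.45 without BcorWT replicate 2 and -0.78 with the GC offset. The median of the list was 0.23 with the GC offset, 0.20 without BcorWT replicate 1 and 0.14 without BcorΔE9-10 replicate 2. With the GC offset 2 genes of the list had an unadjusted p under 0.05 (4.13% of all genes). These were Vps72 and Actr5 (log2 fold change 0.76), in opposite directions. Without the offset, the log2 fold change of Actr5 was 0.33 over all 4 libraries and 0.16 to 0.52 with each library left out. Tfpt, of the same list, had a log2 fold change of -0.65 over all 4 libraries. It was -1.23 without BcorWT replicate 2 and turned to 0.21 without BcorWT replicate 1.

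Xist, the RNA of the inactive X chromosome, had 13 and 24 counts in the BcorΔE9-10 libraries and 64 and 101 in the BcorWT libraries, with male donors and female recipients. The log2 fold change was -2.56 (SE 0.47, edgeR adjusted p = 0.419, and 0.0132 to 0.999 over the alternatives). Its part in the members' values was not tested.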
